A study of Mus musculus with 24 samples.

Results

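Macrophages given lipopolysaccharide together with 4-hydroxyestrone (LPS+4-OHE1) were compared after 24 h and after 6 h, 3 libraries at each time, 6 of the 24 messenger RNA libraries of the study. Bone marrow of female C57BL/6J mice aged 8 weeks was grown in M-CSF at 20 ng/mL to give bone marrow-derived macrophages, and all groups share this source. The groups used beside LPS+4-OHE1 were LPS alone, 4-OHE1 alone and vehicle, each with 3 libraries at 24 h and 3 at 6 h. The protocol gives LPS at 100 ng/mL and 4-OHE1 at 5 mM for both the stock and the final dose, with a dilution of 1000 fold between them, so the doses reached are uncertain. The labels do not say whether replicate libraries came from different mice or wells, so the error behind each p-value is that between libraries and may be technical.

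Genes were joined between the tables of the 2 times by symbol. Of 24537 genes, 1114 were listed with a different transcript at each time and were left out, and 10180 of the other 23423 reached 1 FPKM (fragments per kilobase of transcript, scaled to the total reads of the library) in at least 3 of the 6 libraries. Of these, 8936 reached it in all 6 libraries, 295 passed only through the 24 h libraries and 229 only through the 6 h libraries. Genes of these kinds had to differ, and among those named below they are Csf3, Lcn2, Cxcl5, Fpr1, Mcemp1, Gsta4, Marco and Mmp9 for 24 h and Ifnb1, Tlr8, Tnfsf10 and Xcr1 for 6 h. Levels below are FPKM as deposited. Differences are log2(FPKM + 0.5) at 24 h minus that at 6 h, after the 6 libraries were scaled by the median of ratios, and a gene is said to have risen or fallen at an adjusted p under 0.05 in limma.

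LPS is a component of the outer membrane of Gram-negative bacteria. Macrophages sense it through CD14, MD-2 and TLR4, which signals through MyD88 to NF-kB and AP-1 and through TRIF to IRF3 and interferon beta. Secreted interferon then raises a further wave of genes. 4-OHE1 is a catechol metabolite of estrone that can be oxidised to a reactive quinone, and such electrophiles are known to release the antioxidant factor NRF2 from KEAP1. Many early LPS genes are transient, since inhibitors such as A20, IkB alpha, SOCS3 and IRAK-M are themselves induced and limit the signal.

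The stretches of promoter below show letters that stand before the start sites of genes whose levels differed most between the times, or of members of the lists described further on. They were chosen after the values were seen, come from RefSeq on GRCm38.p6, and lie upstream of the start site that the tables give for the same gene. Capitals mark letters of the motif named for each gene, found on either strand.
Ifit1, chr19:34640759-34640838, plus strand, with GAAANN followed by GAAA, as in interferon response elements: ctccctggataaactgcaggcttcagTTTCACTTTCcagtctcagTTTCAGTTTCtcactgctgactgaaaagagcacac
Rsad2, chr12:26456523-26456602, minus strand, with GAAANN then GAAA: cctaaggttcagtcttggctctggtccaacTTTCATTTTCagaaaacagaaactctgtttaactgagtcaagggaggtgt
Gbp5, chr3:142496744-142496823, plus strand, with GAAANN then GAAA: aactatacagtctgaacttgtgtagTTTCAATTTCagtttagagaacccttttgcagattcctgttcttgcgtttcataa
Gbp2, chr3:142620573-142620652, plus strand, with GAAANN then GAAA: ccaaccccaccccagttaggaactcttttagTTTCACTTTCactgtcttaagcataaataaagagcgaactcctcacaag
Chac1, chr2:119351022-119351101, plus strand, with TGATGNAA of composite ATF4 and C/EBP elements: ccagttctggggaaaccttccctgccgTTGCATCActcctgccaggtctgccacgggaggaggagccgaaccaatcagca
Mcm5, chr8:75109339-75109418, plus strand, with TTTNNCGC of E2F elements, where 2 matches overlap: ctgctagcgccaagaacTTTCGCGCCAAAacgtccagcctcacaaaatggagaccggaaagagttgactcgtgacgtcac
Cxcl3, chr5:90786001-90786080, plus strand, with the kappaB consensus, where 2 matches overlap: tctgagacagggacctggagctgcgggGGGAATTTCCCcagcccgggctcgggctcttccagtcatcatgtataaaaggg
Saa3, chr7:46715727-46715806, minus strand, with TTGCNNAA of C/EBP elements: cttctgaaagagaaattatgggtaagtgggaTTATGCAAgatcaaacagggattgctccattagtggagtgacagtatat

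The motif letters were searched in the 250 bases before the start site, which RefSeq gave within 50 bases of the tables' start for 7230 of the 10180 tested genes. GAAANN then GAAA stood in 14 of 31 promoters of interferon-stimulated genes (45.2%) and in 6 of 6 of guanylate-binding proteins and immunity GTPases, against 2.92% of all 7230. TGATGNAA stood in 5 of 26 promoters of the ATF4 list (19.2%, against 1.92% of all). TTTNNCGC stood in 6 of 19 promoters of DNA replication genes (31.6%, against 7.68% of all). The kappaB consensus stood in 5 of 12 chemokine promoters (41.7%) and in 6 of 17 of NF-kB subunits and feedback inhibitors (35.3%), against 4.47% of all. Among genes that fell at least 2-fold, 5.99% of promoters held GAAANN then GAAA, and among genes that rose at least 2-fold 3.16% did. The kappaB consensus stood in 5.26% of the promoters of genes that rose at least 2-fold and in 5.35% of those that fell at least 2-fold. These shares are descriptions of letters in a window and were not tested.

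Under LPS+4-OHE1, 3212 genes were higher at 24 h than at 6 h (31.6% of the 10180 tested) and 3258 were lower (32%), of which 705 (6.93%) and 1147 (11.3%) changed at least 2-fold. Without scaling, 4728 were higher (46.4%) and 2244 lower (22%). The median difference of all genes was 0.26 without scaling and 0.02 with it. Under both scalings 3212 genes rose and 2244 fell, and 0 genes were called in opposite directions. The groups did not overlap in 7395 genes (72.6%). In vehicle cells the same interval changed far fewer genes, 597 higher (5.77% of 10351) and 304 lower (2.94%), of which 14 (0.135%) and 4 (0.0386%) changed at least 2-fold. After the time change in vehicle cells was subtracted, in a fit of all 24 libraries, 3000 genes were higher (26.7% of 11220) and 3366 lower (30%); without scaling these were 4786 (42.7%) and 2269 (20.2%). With LPS alone, 3132 of 9809 genes were higher at 24 h (31.9%) and 3204 lower (32.7%), and with 4-OHE1 alone 3243 of 10413 were higher (31.1%) and 3312 lower (31.8%). Counts for the gene lists below are to be read beside the shares of all genes under LPS+4-OHE1. These were 31.6% rising and 32% falling, or 31.6% and 22% under both scalings. Relative to LPS, 26.9% of all genes were higher and 25.6% lower.

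The 6 libraries held 9575000 to 12415000 reads, worked out to the nearest 1000 from the FPKM worth of 1 read. The first principal component, with 84.0% of the variance, separated the times. The second, with 6.19%, spread the 6 h libraries, from 17.9 for replicate 1 to -21.6 for replicate 3, with replicate 2 between them at 2.82. The 24 h libraries had the same order over a narrower range, at 4.38, 0.02 and -3.49 for replicates 1, 2 and 3. Pairs of 6 h libraries differed by 10.97 to 18.6 in chi-square per degree of freedom and pairs of 24 h libraries by 3.03 to 6.70, all beyond sampling noise. Without replicate 3 at 6 h, 3185 genes were higher (31.3%) and 3270 lower (32.1%), and without replicate 2 at 6 h 2913 and 2997. Markers of fibroblasts summed to 8.62 to 12.8 FPKM at 24 h and 9.13 to 11.2 at 6 h, and those of osteoclasts to 40.4 to 44.4 at 24 h and 30.3 to 30.7 at 6 h. Markers of lymphocytes, red cells and mast cells summed to at most 2.20 FPKM in any of the 6 libraries, and the 26 macrophage identity genes to 9404 to 10099 FPKM at 24 h and 8563 to 8941 at 6 h. In bulk RNA, fewer cells of a type and less RNA per cell cannot be told apart.

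Several LPS genes rose steeply between the times. Il1b, which encodes interleukin 1 beta, stood at 186, 157 and 95.3 FPKM at 24 h, against 9.12, 9.75 and 6.72 at 6 h. Every 24 h library was far above every 6 h library, and the log2 difference was 3.72 ± 0.24 (SE, adjusted p = 5.52e-06). Il1a, its close relative, stood at 31.6, 22.95 and 16.5 FPKM at 24 h, against 3.71, 2.92 and 1.62 at 6 h (2.66 ± 0.30). Csf3, which encodes the granulocyte growth factor G-CSF, stood at 33.7, 30.1 and 22.1 FPKM at 24 h, against 0.279, 0.539 and 0.069 at 6 h (5.03 ± 0.25). In the 6 h libraries that was 4, 7 and 1 reads. Saa3, an acute phase apolipoprotein of macrophages, stood at 134, 119 and 65.3 FPKM at 24 h, against 4.69, 5.97 and 3.93 at 6 h (4.01 ± 0.26). Lcn2, which encodes the iron-siderophore binding protein lipocalin 2, stood at 15.4, 10.5 and 6.00 FPKM at 24 h, against 0.224, 0.247 and 0.444 at 6 h (3.53 ± 0.29). In all 5 of these genes replicate 3 was the lowest of the 24 h libraries. No 24 h library overlapped a 6 h library in Il1b, Il1a and Saa3, whereas for Csf3 and Lcn2 the filter itself fixed this.

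These rises still left the genes far below LPS alone. Shares of the LPS level, here and below, are of FPKM as deposited. By that measure the median tested gene stood at 114% of LPS at 24 h and 115% at 6 h. Il1b averaged 146 ± 46.3 FPKM with LPS+4-OHE1 at 24 h (SD, n = 3), which was 3.38% of its level with LPS at that time, 4328 ± 157 FPKM. At 6 h the share was 0.319%, 8.53 ± 1.60 FPKM with LPS+4-OHE1 against 2675 ± 173 FPKM with LPS. Il1a stood at 1.80% of its LPS level at 24 h and 0.377% at 6 h. Csf3 stood at 10.7% of its LPS level at 24 h and 0.991% at 6 h. Saa3 stood at 0.420% of its LPS level at 24 h, where LPS cells held 25280 ± 2946 FPKM, and at 0.203% at 6 h. Lcn2 stood at 0.959% at 24 h and 0.488% at 6 h. The rise over time exceeded that with LPS alone by 3.32 ± 0.36 log2 units for Il1b, 2.13 ± 0.30 for Il1a and 2.22 ± 0.27 for Csf3, all called. For Saa3 the excess was 0.91 ± 0.57 (adjusted p = 0.191) and for Lcn2 -0.27 ± 0.40 (adjusted p = 0.596). Neither rise was shown to differ from that with LPS. At 6 h Lcn2 had only 2, 2 and 4 reads with LPS+4-OHE1, and Csf3 had 4, 7 and 1. The 0.5 FPKM added before the logarithm shrinks the rise of genes this low. The negative sign for Lcn2 therefore goes against its shares of the LPS level and gives no direction, and the excess for Csf3 is understated.

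**Figure D1:**
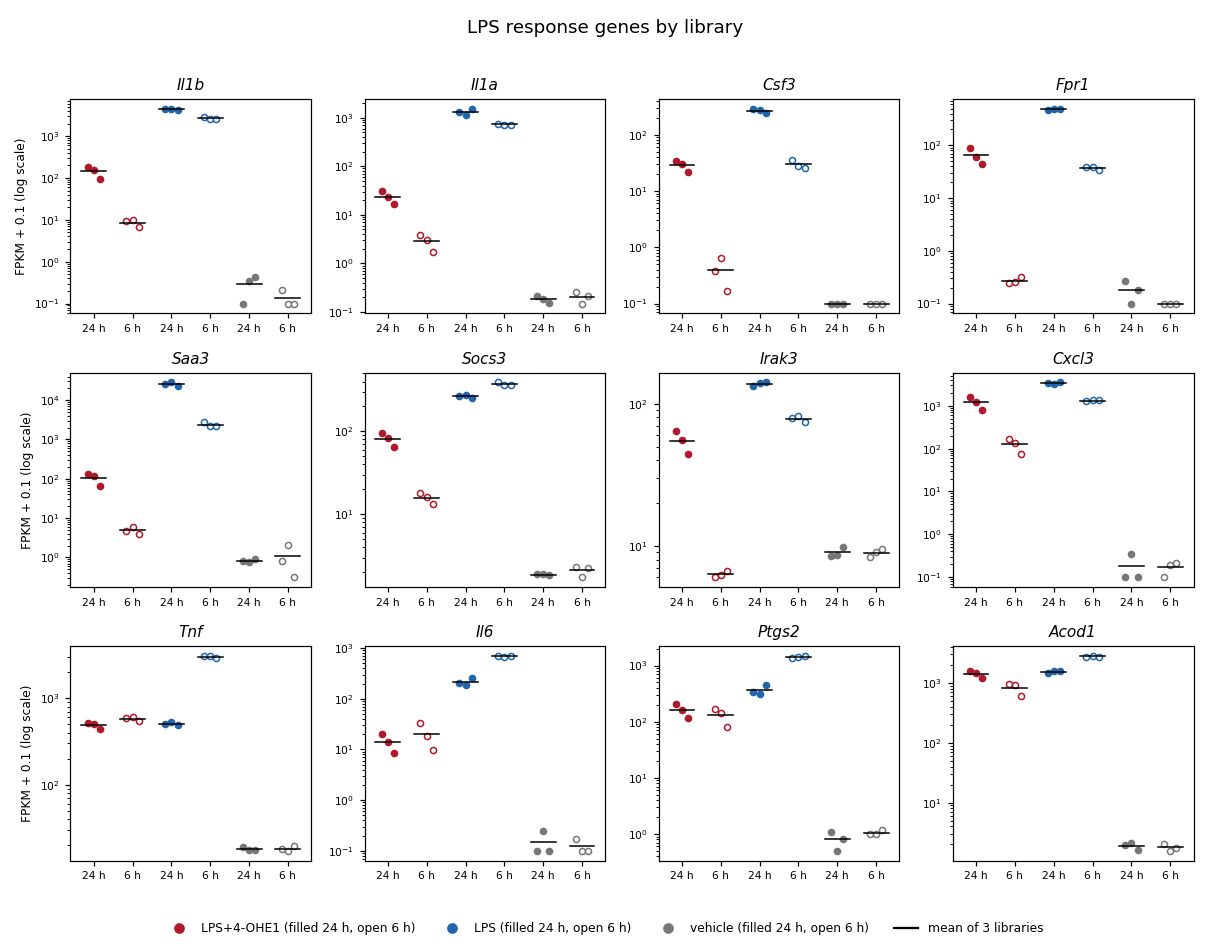
Level of 12 LPS response genes in each library of LPS+4-OHE1, LPS and vehicle, as FPKM + 0.1 on a log axis, with filled points at 24 h, open points at 6 h and a line at the mean of 3 libraries. Il1b with LPS+4-OHE1 sits at 95.3 to 186 FPKM at 24 h and 6.72 to 9.75 at 6 h, below LPS at both times, while Tnf sits at 441 to 520 at 24 h and 539 to 610 at 6 h.

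The other cytokines did not follow this course. Of 28 inflammatory cytokines listed, 18 were tested, of which 6 rose and 8 fell, with a median difference of -0.58 (-0.34 without scaling, with the same 6 and 8 called). The 6 that rose were Csf3, Saa3, Il1b, Lcn2, Il1a and Ebi3, a subunit of interleukins 27 and 35 (1.23). Those that fell included Il27 (-3.06), Il15 (-2.41), Tnfsf10, which encodes the death ligand TRAIL (-1.96), and Il1rn, the interleukin 1 receptor antagonist (-1.49). Tnf stood at 520, 509 and 441 FPKM at 24 h, against 594, 610 and 539 at 6 h. It fell by little (-0.51 ± 0.10, adjusted p = 0.00161), whereas with LPS alone it averaged 505 ± 18.5 FPKM at 24 h and 3015 ± 72.8 at 6 h. Its level was thus 97.02% of the LPS level at 24 h and 19.3% at 6 h, and relative to LPS it rose by 2.35 ± 0.12. Il10, an inhibitory cytokine, stood at 1.89, 1.86 and 2.30 FPKM at 24 h, against 3.94, 3.46 and 2.38 at 6 h (-0.78 ± 0.19, adjusted p = 0.00677).

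Il6 and Il12b were low and uneven. Il6 stood at 20.5, 13.6 and 8.38 FPKM at 24 h, against 32.8, 18.1 and 9.75 at 6 h, so the groups overlapped and no change was called (-0.68 ± 0.44, adjusted p = 0.203). Without replicate 3 at 6 h it was called lower. Il12b, a subunit of interleukin 12, stood at 4.22, 2.29 and 0.834 FPKM at 24 h, against 4.55, 2.81 and 2.10 at 6 h (-0.65 ± 0.43, adjusted p = 0.212). At 24 h Il6 was at 6.61% and Il12b at 2.91% of the LPS level, against 2.95% and 1.08% at 6 h. Of the 18 cytokines tested, 14 were higher at 24 h relative to LPS (26.9% of all 11220 genes were) and 1 was lower.

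Chemokines went both ways. Of 18 tested members of the CC and CXC list, 5 rose and 10 fell (5 and 7 under both scalings). The rising share lay near that of all genes (31.6%), of which 32% fell. Cxcl3, a neutrophil attractant, stood at 1629, 1196 and 785 FPKM at 24 h, against 167, 138 and 75.2 at 6 h (2.99 ± 0.34). Cxcl5 stood at 8.36, 5.13 and 3.29 FPKM at 24 h, against 0.172, 0.063 and 0.454 at 6 h (2.86 ± 0.32). Cxcl1 rose less (0.75), a call lost without replicate 3 at 6 h, and Cxcl2 was not called (-0.13). Cxcl10, which attracts T cells and is induced by interferon, stood at 31.8, 29.9 and 29.7 FPKM at 24 h, against 735, 677 and 452 at 6 h (-4.56 ± 0.18). Ccl4, a CC chemokine, stood at 156, 183 and 204 FPKM at 24 h, against 920, 1015 and 1079 at 6 h (-2.74 ± 0.10). Ccrl2, an atypical receptor that binds chemerin, stood at 9.07, 9.71 and 9.26 FPKM at 24 h, against 160, 165 and 148 at 6 h (-4.26 ± 0.08).

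Among the largest rises were those of surface receptors and secreted proteins. Fpr1, the formyl peptide receptor, stood at 88.0, 61.2 and 43.8 FPKM at 24 h, against 0.144, 0.158 and 0.213 at 6 h (6.37 ± 0.22), which in the 6 h libraries was 2, 2 and 3 reads. With LPS alone it averaged 480 ± 15.7 FPKM at 24 h and 37.5 ± 2.79 at 6 h, so its level moved to 13.4% of LPS at 24 h, against 0.458% at 6 h. Pilra, an inhibitory paired receptor, stood at 49.3, 45.3 and 35.5 FPKM at 24 h, against 1.03, 1.13 and 1.02 at 6 h (4.58 ± 0.13). Its activating partner Pilrb1 rose by 3.55 ± 0.29, though reads of such similar genes may be split between them. Mcemp1, a membrane protein of mast cells and monocytes, had 6.37, 7.46 and 6.04 FPKM at 24 h and 0 reads in all 3 libraries at 6 h. Against 3 reads over the 6 h group its level was at least 76.4-fold higher.

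S100a8, a calcium-binding alarmin abundant in neutrophils, stood at 112, 81.4 and 96.3 FPKM at 24 h, against 1.71, 1.62 and 0.969 at 6 h (5.43 ± 0.19). Unlike the cytokines it exceeded LPS, 197% of the LPS level at 24 h and 22.7% at 6 h. It made up nearly all of the summed neutrophil markers, 82.3 to 112 FPKM at 24 h and 1.66 to 2.04 at 6 h, while Ly6g and Retnlg, which define neutrophils, were at 0 in all 6 libraries. Its partner S100a9 was at 0 in all 3 libraries at 24 h. The 6 dendritic cell markers in the tables summed to 21.4 to 21.9 FPKM at 24 h and 10.5 to 11.7 at 6 h, mostly Itgax, which rose (0.93 ± 0.07). Xcr1 fell in the same list (-2.29 ± 0.23).

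H2-M2, a nonclassical MHC class I gene, stood at 176, 149 and 106 FPKM at 24 h, against 6.78, 8.36 and 4.67 at 6 h (4.09 ± 0.24). Serpinb2, the plasminogen activator inhibitor PAI-2, stood at 43.3, 28.9 and 22.4 FPKM at 24 h, against 1.25, 0.905 and 1.34 at 6 h (4.00 ± 0.22). Serinc2, a membrane protein of the serine incorporator family, stood at 48.3, 39.7 and 30.2 FPKM at 24 h, against 0.863, 0.616 and 1.26 at 6 h (4.60 ± 0.20). At 24 h Serinc2 averaged 3.83 ± 0.346 FPKM with LPS, 6.72 ± 1.06 with 4-OHE1 and 0.747 ± 0.162 with vehicle, and with 4-OHE1 at 6 h it averaged 0.788 ± 0.478. Slc6a12, a betaine and GABA transporter, stood at 133, 113 and 113 FPKM at 24 h, against 7.03, 6.43 and 7.00 at 6 h (3.77 ± 0.09), with 67.4 FPKM for 4-OHE1 alone at 24 h. Among metalloproteinases, 6 of 11 tested genes rose and 2 fell, where 31.6% and 32% of all genes did. The rises were led by Mmp9 (3.49 ± 0.24) and the membrane-bound Mmp14 (2.19 ± 0.21).

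Inhibitors of LPS signalling were among the genes that rose. Socs3, which blocks cytokine receptor signalling, stood at 95.1, 83.7 and 65.4 FPKM at 24 h, against 17.9, 15.97 and 13.2 at 6 h (2.07 ± 0.16). With LPS alone Socs3 went the other way, 265 ± 13.3 FPKM at 24 h and 374 ± 13.5 at 6 h, and the difference between the time changes was 2.86 ± 0.18. Irak3, which encodes IRAK-M, stood at 64.1, 55.2 and 44.1 FPKM at 24 h, against 5.93, 6.15 and 6.57 at 6 h (2.76 ± 0.13), the 6 h level being below that of vehicle cells (8.88 FPKM). Of the 23 NF-kB subunits and feedback inhibitors tested, 10 rose and 11 fell (10 and 8 under both scalings). Relative to LPS 20 were higher, where 26.9% of all genes were. Nfkbia, which encodes IkB alpha, rose (0.82), and Tnfaip3, which encodes A20, fell (-1.10). Zfp36, an mRNA decay factor, fell by 2.001 ± 0.07.

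Genes of LPS sensing moved less. Of 19 toll-like receptors and adaptors tested, 9 rose and 4 fell, under both scalings. Relative to LPS 13 were higher and 0 lower, where 26.9% and 25.6% of all genes were. Cd14, the LPS co-receptor, stood at 1052, 984 and 873 FPKM at 24 h, against 355, 389 and 359 at 6 h (1.13 ± 0.09). That was 87.4% of the LPS level at 24 h and 36.4% at 6 h. Tlr4, the receptor itself, rose (0.76), as did Tlr1 (0.99) and the adaptor gene Ticam2 (1.05 ± 0.14). The endosomal receptor genes Tlr8 (-1.67 ± 0.18) and Tlr3 (-1.34 ± 0.25) fell. Tlr2 stood at 63.5, 57.2 and 51.6 FPKM at 24 h, against 56.1, 52.1 and 45.9 at 6 h, with overlapping groups and no call (-0.10 ± 0.11, adjusted p = 0.438).

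Effector enzymes of the LPS response took different courses. Acod1, which makes itaconate, stood at 1560, 1449 and 1226 FPKM at 24 h, against 963, 919 and 602 at 6 h (0.53 ± 0.19, adjusted p = 0.0394). The call was lost without replicate 3 at 6 h. Its level was 91.1% of that with LPS at 24 h and 29.9% at 6 h. Nos2, the inducible nitric oxide synthase, stood at 4.96, 4.21 and 2.77 FPKM at 24 h, against 16.4, 15.1 and 6.88 at 6 h (-1.76 ± 0.33), and was at 13.6% of LPS at 24 h and 3.69% at 6 h. Ptgs2, which encodes cyclooxygenase 2, stood at 210, 161 and 118 FPKM at 24 h, against 166, 140 and 81.4 at 6 h, with overlapping groups and no call (0.09 ± 0.29, adjusted p = 0.801). Of 12 prostaglandin and leukotriene enzymes, 8 rose and 3 fell under both scalings. Ptges, which makes prostaglandin E2 and acts after cyclooxygenase, rose by 2.22 ± 0.21, and Pla2g7, which breaks down platelet-activating factor, rose by 2.69 ± 0.16. Tbxas1, the thromboxane synthase, fell by 1.41 ± 0.07.

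Interferon-stimulated genes fell as a block. Of 49 listed, 44 were tested, of which 38 fell and 3 rose, 27 of them falling at least 2-fold (36 and 3 under both scalings). The median was -1.56, against 0.02 for all genes. Cmpk2, a mitochondrial nucleotide kinase, stood at 15.0, 16.3 and 16.5 FPKM at 24 h, against 1017, 894 and 626 at 6 h (-5.92 ± 0.17). That was the largest fall among the genes eligible under the rule for named genes given below. Rsad2, the antiviral protein viperin, stood at 50.99, 62.8 and 69.8 FPKM at 24 h, against 2456, 2041 and 1597 at 6 h (-5.30 ± 0.18). Its promoter stretch with the capitals TTTCATTTTC is printed above. Ifit1, which binds foreign RNA ends, stood at 62.2, 60.9 and 61.4 FPKM at 24 h, against 863, 618 and 475 at 6 h (-3.62 ± 0.20). In these 3 genes replicate 3 was the lowest of the 6 h libraries, and the groups did not overlap.

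Mx1 fell by 4.62 ± 0.23, Oasl1 by 4.14 ± 0.10 and Ifit2 by 4.05 ± 0.19. Ifnb1, which encodes interferon beta, was at 0, 0 and 0.118 FPKM at 24 h, which is 1 read in all, against 2.10, 2.86 and 1.71 at 6 h. All 11 tested guanylate-binding proteins and immunity GTPases fell, under both scalings, with a median of -2.21, led by Gbp5 at 6.28, 6.27 and 4.30 FPKM at 24 h, against 74.0, 78.3 and 48.2 at 6 h (-3.70 ± 0.21). The 3 interferon genes that rose were Bst2, which encodes tetherin (0.78), Irf7 (0.76) and Oas3 (0.63).

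The interferon genes also fell with LPS alone. The median of the 44 genes over time was -1.93 with LPS, and relative to LPS 14 of them were higher and 4 lower, where 26.9% of all genes were higher. Cmpk2 was at 91.05% of its LPS level at 24 h and 113% at 6 h, and its time change minus that with LPS was -0.25 ± 0.29 (adjusted p = 0.485). Rsad2 was above LPS at both times, 215% at 24 h and 151% at 6 h. Cxcl10 was at 37.2% of LPS at 24 h and 20.6% at 6 h, and Gbp5 at 18.9% and 15.0%.

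**Figure D2:**
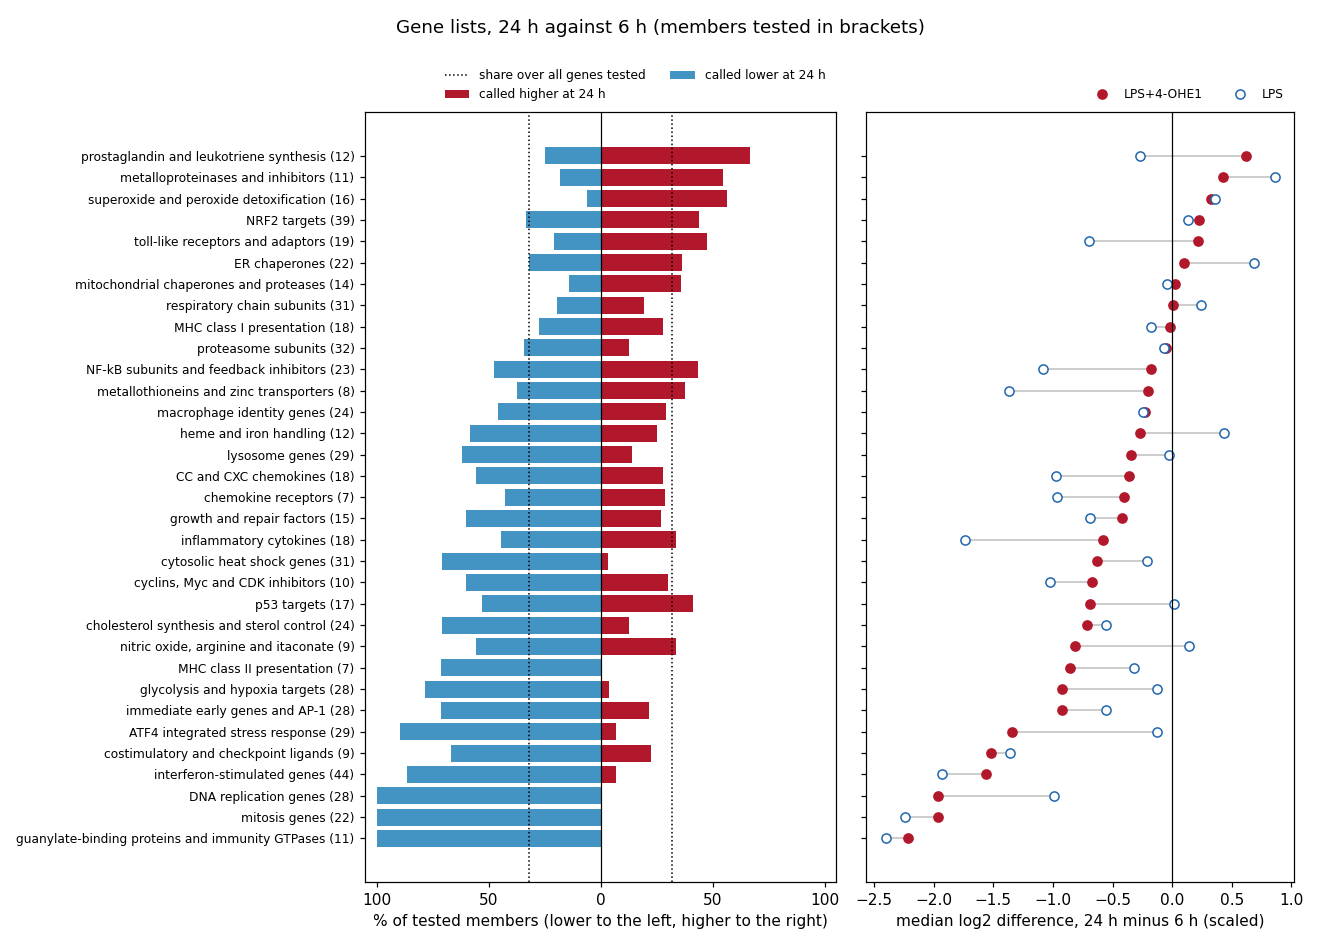
Left, share of the tested members of each gene list that were called lower (to the left) or higher (to the right) at 24 h with LPS+4-OHE1, with dotted lines at the shares of all genes tested (31.6% higher, 32% lower). Right, median log2 difference of each list, 24 h minus 6 h, for LPS+4-OHE1 (filled) and LPS (open), where ATF4 genes stand at -1.34 and -0.12 and inflammatory cytokines at -0.58 and -1.74.

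Genes of the integrated stress response, in which ATF4 drives amino acid uptake and synthesis, were lower at 24 h. Of 29 tested, 26 fell and 2 rose (23 and 2 under both scalings), with a median of -1.34 in LPS+4-OHE1 and -0.12 in LPS. Relative to LPS, 21 were lower and 4 higher. Chac1, which degrades glutathione and whose promoter stretch is printed above, stood at 8.68, 9.47 and 8.90 FPKM at 24 h, against 35.1, 39.6 and 36.2 at 6 h (-2.23 ± 0.08). Slc38a2, a neutral amino acid transporter, stood at 62.3, 59.8 and 70.0 FPKM at 24 h, against 300.0, 263 and 299 at 6 h (-2.42 ± 0.08). Ddit3, which encodes the transcription factor CHOP, stood at 80.8, 94.1 and 117 FPKM at 24 h, against 208, 248 and 272 at 6 h (-1.59 ± 0.14). Even at 24 h Ddit3 was above LPS (20.2 ± 2.76 FPKM) and vehicle (14.1 FPKM), and Slc38a2 was close to vehicle (69.6 FPKM). With 4-OHE1 alone Slc38a2 stood at 98.2 FPKM at 24 h and 305 at 6 h, and Ddit3 at 125 FPKM at 24 h and 340 at 6 h.

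Heat shock genes fell less. Of 31 cytosolic heat shock genes tested, 22 fell and 1 rose, but 17 fell under both scalings, and the median was -0.63 (-0.37 without scaling). Bag3, a co-chaperone, fell by 1.40 ± 0.08, and Hspa1a, which encodes an inducible HSP70, by 0.88 ± 0.23. Hspa1a remained far above LPS, where it averaged 0.7503 FPKM at 24 h and 1.69 at 6 h. Of 22 endoplasmic reticulum chaperones, 8 rose and 7 fell, and relative to LPS 1 was higher and 19 were lower. Proteasome subunits were spread around 0, with 4 of 32 rising and 11 falling (4 and 4 under both scalings). Of 28 immediate early genes, 20 fell and 6 rose (18 and 6 under both scalings). Atf3, a stress-induced repressor of LPS genes, stood at 113, 122.988 and 144 FPKM at 24 h, against 718, 789 and 918 at 6 h (-2.94 ± 0.11), and Batf rose (2.48 ± 0.19). Cells given 4-OHE1 alone averaged 98.9 FPKM of Atf3 at 24 h and 732 at 6 h.

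Of 39 NRF2 targets tested, 17 rose and 13 fell (17 and 9 under both scalings). Among all genes 31.6% rose and 32% fell (31.6% and 22% under both scalings), so the falling share lay near that of all genes. Hmox1, the heme oxygenase, stood at 1141, 1317 and 1386 FPKM at 24 h, against 8064, 8710 and 7234 at 6 h (-2.91 ± 0.11). Its 24 h level lay at 107% of LPS, against 455% at 6 h. Nqo1, a quinone reductase, did the opposite, with 386, 372 and 337 FPKM at 24 h, against 62.5, 60.5 and 50.4 at 6 h (2.39 ± 0.11). Nqo1 was at 529% of LPS at 24 h and 177% at 6 h. Both genes took the same directions with 4-OHE1 alone, in reads not scaled for depth. Hmox1 had 17511, 22860 and 18492 reads there at 24 h, against 148586, 129681 and 146134 at 6 h. Nqo1 had 4076, 4399 and 3572 reads at 24 h, against 1071, 804 and 943 at 6 h. The glutathione transferase genes Gsta4 (2.28 ± 0.19), Gstm2 (2.05 ± 0.34) and Gstp1 (1.28) rose. Gclc, the catalytic subunit of glutathione synthesis, fell (-1.95), as did Txnrd1 (-0.98) and Srxn1 (-1.13). Slc7a11, the cystine transporter, stood at 121, 110 and 103 FPKM at 24 h, against 97.7, 75.0 and 63.0 at 6 h, a change not called with scaling (0.26 ± 0.16, adjusted p = 0.192) and called higher without it. Gclm was called lower with scaling (-0.36 ± 0.08) and not called without it.

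Peroxide and superoxide defences mostly rose, 9 of 16 tested genes against 1 that fell, under both scalings. Prdx1, an abundant peroxiredoxin, stood at 3788, 3547 and 3519 FPKM at 24 h, against 2286, 1902 and 1613 at 6 h (0.65 ± 0.14). The mitochondrial Prdx5 rose by 1.91 ± 0.12 and Sod2 by 1.38 ± 0.16. Of 12 genes of heme and iron handling, 3 rose and 7 fell (3 and 4 under both scalings).

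**Figure D3:**
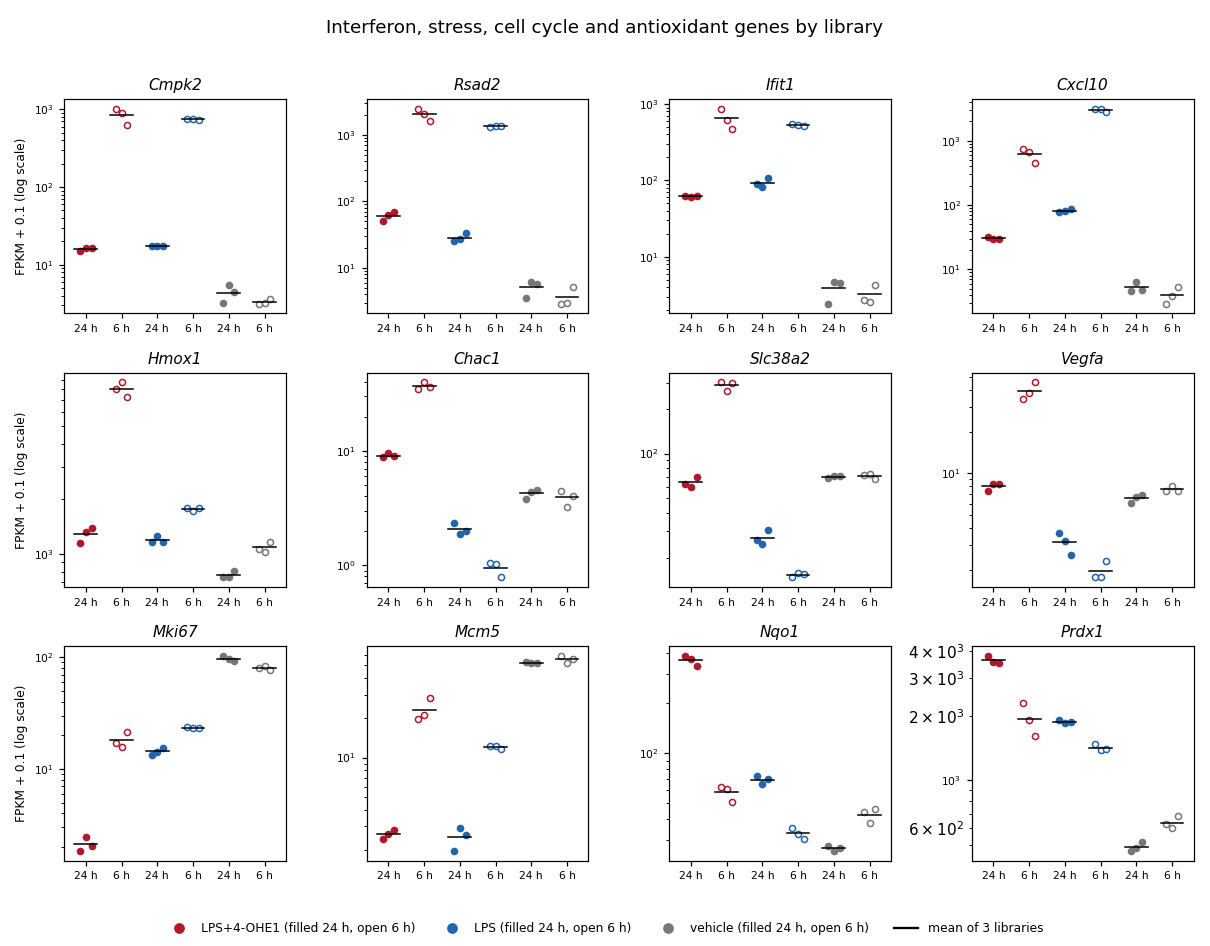
Level of 12 genes in each library of LPS+4-OHE1, LPS and vehicle, as FPKM + 0.1 on a log axis, with filled points at 24 h, open points at 6 h and a line at the mean of 3 libraries. With LPS+4-OHE1, Hmox1 sits at 1141 to 1386 FPKM at 24 h and 7234 to 8710 at 6 h, while Nqo1 sits at 337 to 386 at 24 h and 50.4 to 62.5 at 6 h.

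Hypoxia and glycolysis genes fell. Of 28 tested, 22 fell and 1 rose (20 and 1 under both scalings), with a median of -0.92 in LPS+4-OHE1 and -0.13 in LPS. Vegfa, the vascular growth factor, stood at 7.27, 8.30 and 8.23 FPKM at 24 h, against 34.2, 38.2 and 45.2 at 6 h (-2.48 ± 0.10). Ndrg1 fell by 2.25 ± 0.10, and Ldha, the lactate dehydrogenase A subunit, by 1.19. Vegfa and Ndrg1 were also lower at 24 h with 4-OHE1 alone, in reads not scaled for depth. Vegfa had 385, 523 and 392 reads there at 24 h, against 1579, 1546 and 1748 at 6 h. Ndrg1 had 1038, 1234 and 1042 reads at 24 h, against 1712, 1685 and 1901 at 6 h. Of 31 respiratory chain subunits, 6 rose and 6 fell, 6 and 1 under both scalings. Of 24 cholesterol genes, 17 fell and 3 rose (14 and 3 under both scalings). Insig1, which retains the sterol sensor SCAP, fell by 2.85 ± 0.18, and the sterol exporters Abca1 (2.05 ± 0.15) and Abcg1 (1.90 ± 0.12) rose. Abcg1 was also higher over time with 4-OHE1 alone, 15.6 FPKM at 24 h and 3.11 at 6 h, and at 4.21 and 3.51 FPKM with LPS.

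Genes of mitosis and DNA replication fell. All 22 mitosis genes and all 28 DNA replication genes were lower at 24 h, with medians of -1.97 and -1.96, and 22 and 26 were lower under both scalings. Mki67, a marker of dividing cells, stood at 1.75, 2.38 and 1.94 FPKM at 24 h, against 17.1, 15.5 and 21.1 at 6 h (-3.10 ± 0.13). Mcm5, a subunit of the replicative helicase, stood at 2.31, 2.51 and 2.72 FPKM at 24 h, against 19.6, 20.9 and 28.4 at 6 h (-3.19 ± 0.13). Vehicle cells held far more, 97.2 FPKM of Mki67 and 52.3 of Mcm5 at 24 h. With LPS the medians were -2.24 for mitosis and -0.99 for replication genes, and relative to LPS 20 of the 28 replication genes were lower. Of 10 tested cyclins, Myc and cyclin-dependent kinase inhibitors, 3 rose and 6 fell, under both scalings. Those that fell included Cdkn2c, Mxd1 and Ccnd1, the last at 9.43 ± 0.65 FPKM at 24 h and 27.1 ± 8.93 at 6 h (SD). Ccnd3, a D-type cyclin, stood at 28.8, 28.9 and 26.8 FPKM at 24 h, against 7.73, 7.26 and 9.36 at 6 h (1.49 ± 0.09). Cdkn1c, an inhibitor of cyclin-dependent kinases outside that list, stood at 93.7, 121 and 139 FPKM at 24 h, against 24.5, 29.4 and 26.1 at 6 h (1.85 ± 0.14). LPS cells held 0.983 and 3.27 FPKM. Cells given 4-OHE1 alone had 1221, 1572 and 1176 reads of Cdkn1c at 24 h, against 594, 575 and 621 at 6 h, not scaled for depth.

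Antigen presentation and identity genes moved less evenly. Of 7 MHC class II genes, 5 fell and 0 rose (4 under both scalings), led by H2-Eb1 (-1.37 ± 0.09). Of 18 MHC class I genes, 5 rose and 5 fell, near the shares of all genes (31.6% and 32%). The checkpoint ligand gene Cd274, which encodes PD-L1, stood at 63.3, 62.3 and 56.4 FPKM at 24 h, against 339, 308 and 225 at 6 h (-2.50 ± 0.16). The costimulatory gene Cd80 rose (2.03 ± 0.12). Of 24 macrophage identity genes, 7 rose and 11 fell (7 and 8 under both scalings), the rising share near that of all genes (31.6%). The complement gene C1qa (-2.18 ± 0.12) and the mannose receptor gene Mrc1 (-2.85 ± 0.16) fell, and the scavenger receptor gene Marco rose (1.85 ± 0.19). Csf1r (0.58) and the lineage factor Spi1 (0.83) rose. Of 29 lysosome genes, 18 fell and 4 rose (13 and 4 under both scalings).

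LPS response genes as a whole were then taken from the difference between LPS and vehicle at 6 h. The fit held all libraries of 6 h. Those of LPS+4-OHE1 thus entered its filter, scaling and spread, and the list is not fully independent of the comparison of times. The lists of late LPS genes and of 4-OHE1 genes further on came from fits of the same kind. LPS raised 1551 genes at least 2-fold over vehicle at 6 h (14.4% of 10787), and 1437 of them were tested here. With LPS+4-OHE1, 404 of these (28.1%) were higher at 24 h and 704 (49.0%) lower, against 31.6% and 32% of all genes, and 404 and 576 were called under both scalings. Their median difference was -0.29 (-0.03 without scaling). Of 198 that were higher at 24 h with LPS, 142 rose and 20 fell with LPS+4-OHE1. Of 1079 that were lower at 24 h with LPS, 646 fell (534 under both scalings) and 186 rose. The median LPS-raised gene stood at 88.8% of its LPS level at 24 h and 58.3% at 6 h, against 114% and 115% for all tested genes. At 24 h 99 of the 1437 (6.89%) were under 25% of the LPS level, against 269 (18.7%) at 6 h. Because the 6 h LPS libraries both chose the list and stand under the 6 h share, these shares are given as a description.

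**Figure D4:**
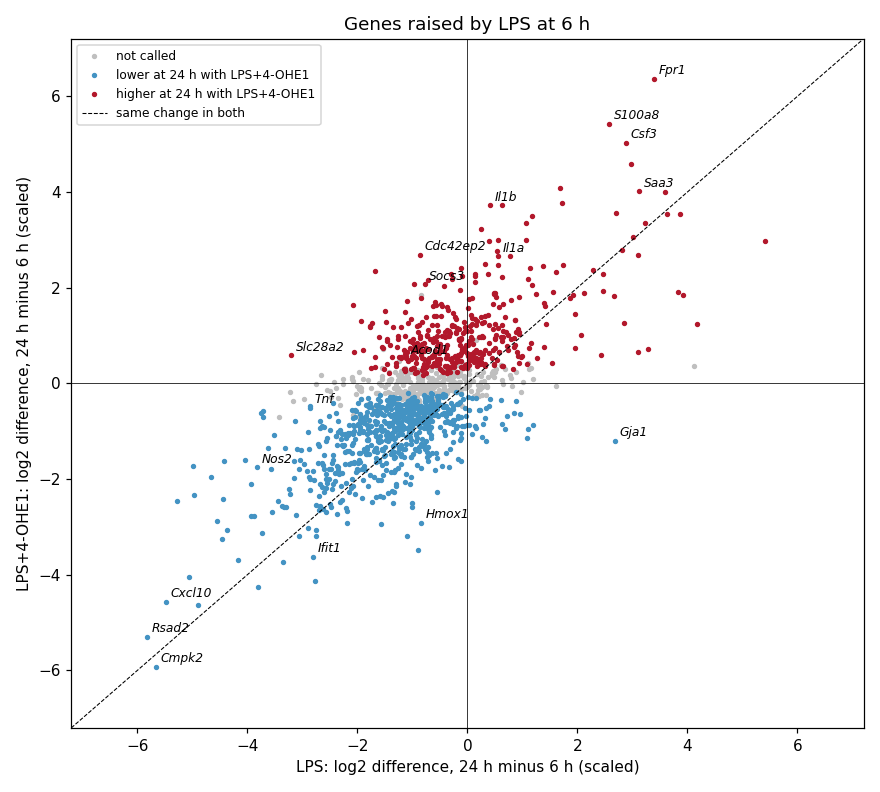
Log2 difference between 24 h and 6 h with LPS+4-OHE1 (vertical) against that with LPS alone (horizontal) for genes raised by LPS at 6 h, 1 point a gene, coloured by the call with LPS+4-OHE1. Fpr1 (6.37) and Cmpk2 (-5.92) are labelled near the ends of the vertical axis, and the 186 genes at upper left rose with LPS+4-OHE1 and fell with LPS.

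Over all 10180 tested genes, 420 fell over time with LPS but rose with LPS+4-OHE1, and 395 did the reverse. Among the 1437 LPS-raised genes the first pattern was seen in 186. The list was chosen by high levels in the LPS libraries of 6 h, which favours a fall with LPS, so these counts are a description. The 186 included Socs3, Acod1, the actin regulator gene Cdc42ep2 and the nucleoside transporter gene Slc28a2. Cdc42ep2 stood at 32.1, 31.5 and 28.0 FPKM at 24 h, against 3.76, 2.95 and 4.03 at 6 h (2.69 ± 0.11), while LPS cells averaged 38.2 ± 1.92 FPKM at 24 h and 57.6 ± 0.721 at 6 h. The difference between the time changes was called in all 186, which the choice of genes with opposite calls made all but certain. The reverse, a fall with LPS+4-OHE1 and a rise with LPS, was seen in 20, among them Gja1, which encodes connexin 43, at 4.18, 2.83 and 2.63 FPKM at 24 h against 7.57, 6.70 and 5.62 at 6 h. With LPS, Gja1 averaged 32.004 ± 4.06 FPKM at 24 h and 3.69 ± 0.192 at 6 h. Arg1, the arginase, stayed under the filter with LPS+4-OHE1, at 0.07, 0.165 and 0 FPKM at 24 h and 0.065, 0.071 and 0 at 6 h, whereas LPS cells held 17.3 ± 1.98 FPKM at 24 h and 0.182 at 6 h.

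Genes raised by LPS late, at 24 h and not at 6 h, also rose with LPS+4-OHE1, 189 of 278 tested (68.0%) against 29 lower (10.4%). Genes raised at least 2-fold by 4-OHE1 alone at 6 h (7.94% of 10787) fell: of 826 tested, 663 were lower at 24 h (80.3%) and 67 higher (8.11%), with a median of -1.04, and 596 and 67 were called under both scalings. Of the 276 raised by both agents, 209 fell and 31 rose. Of the 550 raised by 4-OHE1 and not by LPS, 454 fell and 36 rose. Genes lowered by 4-OHE1 at 6 h leaned the other way, 288 of 557 higher (51.7%) and 166 lower (29.8%). Each of these lists was chosen by the time at which its genes differed from vehicle, which favours the direction seen, so these counts are a description. With genes raised by 4-OHE1 at 24 h instead, 51.4% were higher and 29.5% lower.

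Set against LPS over the same interval, 3023 of 11220 genes (26.9%) moved up and 2875 (25.6%) moved down in LPS+4-OHE1. Both sides changed little without scaling, at 2861 (25.5%) and 2889 (25.7%). The genes with the largest downward differences included stress and cytokine genes. Sesn2, a sestrin of the amino acid stress response, stood at 18.1, 19.5 and 21.4 FPKM at 24 h, against 59.5, 68.2 and 84.5 at 6 h, while LPS cells averaged 5.37 FPKM at 24 h and 1.48 at 6 h. Tnfsf14, which encodes the cytokine LIGHT, stood at 0.603, 1.34 and 0.680 FPKM at 24 h, against 8.74, 9.70 and 12.2 at 6 h. Thbs1, which encodes thrombospondin 1, stood at 12.3, 11.4 and 6.79 FPKM with LPS+4-OHE1 at 24 h and at 6.15, 5.87 and 6.97 at 6 h. With LPS it averaged 228 ± 3.65 FPKM at 24 h and 10.4 ± 1.02 at 6 h.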

How the data were processed

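Messenger RNA of mouse macrophages was sequenced in 24 libraries. The submitters' processing notes name STAR, HOMER, DESeq2, edgeR and the build mm10 without versions. The authors deposited, per the file headers, FPKM values made by HOMER from exon reads, with no scaling between libraries, in 1 table for each time. The authors' deposited comparisons give a log2 fold change and an adjusted p-value per gene, and served only for an alternative list.

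Values were tested as log2(FPKM + 0.5) with limma 3.58.1 in R 4.3.3, with median-of-ratios scaling, the empirical Bayes trend and Benjamini-Hochberg adjustment over all genes tested. The pseudocount understates changes of low genes. Time changes with LPS+4-OHE1 were set against those with LPS or vehicle in a fit of all 24 libraries. The FPKM values checked came out as whole reads, within 0.1 read, for 100% of values, so reads were recovered and tested as an alternative. The fits were also run on simulated data with few changed genes and a fixed spread. These data held many changed genes and uneven 6 h libraries, so that run does not show the error rate here.

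The rule for named genes took a benchmark list, the 15 largest rises and falls with groups that did not overlap and a mean of 5 FPKM or more, the 8 largest differences each way from LPS and from vehicle, and up to 4 called members of each list. Gbp2, Ebi3, Il27, Il15, Tnfsf10, Il1rn, Cxcl1, Cxcl2, Nfkbia, Tnfaip3, Tlr4, Tlr1, Bst2, Irf7, Oas3, Gstp1, Gclc, Txnrd1, Srxn1, Ldha, Csf1r and Spi1 were named after their values were seen. The members and lists were chosen with earlier results of these data known. Replicate numbers were not used as pairs in the main fit, and the labels do not say whether they pair the libraries.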

Additional observations from a re-analysis of the deposited data

Results flagged for a closer look

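The time change with LPS+4-OHE1 differed from that with LPS in 3023 genes that were higher and 2875 that were lower, and from that with vehicle in 3000 higher and 3366 lower, by the test of the difference itself in limma. All values in the next sentences are log2 time changes with LPS+4-OHE1 minus those with LPS, each past an adjusted p of 0.05.

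Among cytokines and effectors the differences were 3.32 for Il1b, 2.86 for Socs3, 2.38 for Il10, 2.37 for Ptgs2, 2.35 for Tnf, 2.13 for Il1a and 2.07 for Nos2. They were 1.65 for Acod1, 1.42 for Il12b, 1.30 for Il6, 1.17 for Tlr2 and 0.92 for Cxcl10. Ifit1 went the other way, at -0.80. Among antioxidant and stress genes the differences were 1.60 for Nqo1, 1.47 for Slc7a11, 0.90 for Gdf15, 0.71 for Sod2 and 0.30 for Gclm. They were -1.35 for Atf3, -2.06 for Hmox1, -2.28 for Ddit3, -2.94 for Chac1 and -2.95 for Trib3. Ccnd1 stood at -0.97, Cxcr4 at -1.76, Vegfa at -2.86 and Tnfrsf12a at -3.11.

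The largest upward differences were 4.20 for Lipg, 3.83 for Slc28a2, 3.78 for Cxcl11, 3.57 for Cdc42ep2, 3.51 for Cdkn1c, 3.46 for Serinc2 and 3.29 for Adamts4, beside Il1b. The largest downward ones were -4.68 for Arg1, -4.52 for Ly6i, -4.09 for Tnfsf14, -3.90 for Gja1, -3.76 for Thbs1, -3.44 for Sesn2, -3.32 for Tcp11l2 and -3.30 for Slamf6. Lipg, Cxcl11, Adamts4, Arg1, Ly6i and Slamf6 did not pass the filter on low values in the LPS+4-OHE1 libraries. Lipg did not rise there, with 0, 2 and 1 reads at 24 h, against 37, 33 and 27 at 6 h. With LPS it had 10, 22 and 5 reads at 24 h, against 1443, 1045 and 928 at 6 h. Its share of the LPS level was 7.40% at 24 h and 2.70% at 6 h. The pseudocount shrinks the fall of a gene this low, so the 4.20 for Lipg is overstated.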

How the results depend on the processing

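Counts of genes called with LPS+4-OHE1, and relative to LPS, stayed within 1.5 times under every alternative run. Relative to vehicle, 4786 genes were higher with FPKM as deposited. The labels do not say whether replicate numbers pair the libraries. Over all tested genes the deviations of same-numbered libraries correlated weakly, at 0.083, 0.029 and 0.098, which cannot exclude a pairing that touches fewer genes. Il6, Il1a and Cxcl3 ran from replicate 1 down to replicate 3 at both times, whereas Tnf did not at 6 h. With the replicate number as a block, 3244 genes were higher and 3331 lower, 3000 and 2855 relative to LPS, and 2981 and 3339 relative to vehicle. Of LPS-raised genes, the percentage higher was 31.2 with a list of at least 4-fold, 49.7 with a list from 24 h, 36.5 with FPKM as deposited, and 24.9 to 29.2 with each library left out. The percentage lower was 29.1 with the 24 h list, 40.1 with FPKM as deposited and 45.2 to 51.9 with each library left out. Of 4-OHE1-raised genes, the percentage higher was 51.4 with the 24 h list and 12.6 with FPKM as deposited. The percentage lower was 77.2 with the list from the authors' deposited table, 29.5 with the 24 h list, 72.2 with FPKM as deposited and 78.2 to 80.9 with each library left out. The cause was not tested. For 177 named genes, 2763 of 2801 values kept their direction and side of the threshold, 25 lost the call and 10 gained it. The sign turned for 3, none of them called in the fit reported: Tlr2 at 0.16 with FPKM as deposited, and Ptgs2 without replicate 1 at 24 h (-0.12) and without replicate 3 at 6 h, where leaving out each library gave values of -0.24 to 0.31. Genes of a few reads a library, such as Csf3 and Fpr1 at 6 h, have imprecise differences.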
